A study of Homo sapiens with 6 samples.

Results

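The matrix metalloproteinases (MMP), the ADAM and ADAMTS proteases and the tissue inhibitors of metalloproteinases (TIMP) were followed in NCI-H460 cells, a human lung cancer line, with and without knockdown of PRMT5. The families were chosen with earlier results of these data known. Members were taken by gene symbol: MMP, ADAM or ADAMTS followed by a number, and TIMP1 to TIMP4, with ADAM17 left out. This gave 68 of the 58825 genes in the deposited tables, namely 24 MMP, 21 ADAM, 19 ADAMTS and 4 TIMP genes. Cells had been infected with lentivirus carrying an shRNA against GFP (NC-shRNA, 3 libraries) or against PRMT5 (PRMT5-shRNA, 3 libraries), grown in RPMI-1640 and selected as stable lines, and poly(A) RNA was sequenced. All 6 libraries came from the same parental line and both groups carried a lentiviral hairpin, so the groups differed in the target of the shRNA. The paper designed 3 hairpins against human PRMT5, and the sample titles do not say which was used. Effects of a hairpin or of a selected line cannot be told apart from those of the knockdown. The study calls the libraries biological replicates, but the labels do not say whether they were separate cultures, so p-values measure the spread between these libraries.

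MMPs are secreted or membrane-bound zinc proteases that cut collagens and other matrix proteins, and they are made as inactive precursors with a propeptide that covers the active site. ADAMs are membrane proteins, many of which release the extracellular parts of growth factors, receptors and adhesion molecules, and ADAMTS proteases are secreted enzymes that cut proteoglycans, procollagens and von Willebrand factor. TIMPs are small secreted proteins that bind the active site of these enzymes. In lung tumours these genes are studied for their part in invasion and in the release of growth factors.

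The enzymes share a short stretch that binds the catalytic zinc through 3 histidines. It was read from the coding exons of GENCODE 29 (GRCh38), and it is shown here for the members on which the results turn and for others of their families, 5′ to 3′ on the coding strand with the histidine codons in capitals.
MMP1: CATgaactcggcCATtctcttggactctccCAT
MMP10: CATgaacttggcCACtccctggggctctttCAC
MMP7: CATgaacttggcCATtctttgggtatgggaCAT
ADAM19: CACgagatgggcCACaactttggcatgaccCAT
ADAM12: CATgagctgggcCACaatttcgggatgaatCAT
ADAMTS10: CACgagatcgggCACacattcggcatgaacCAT
ADAMTS2: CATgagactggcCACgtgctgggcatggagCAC
ADAMTS3: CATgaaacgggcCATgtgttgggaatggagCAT

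The MMP1 stretch lies in 1 exon at chr11:102795549-102795581 on the minus strand, and that of ADAM19 in 1 exon at chr5:157505734-157505766 on the minus strand. Over the 33 bases, MMP1 shared 25 with MMP10, 24 with MMP7, 18 with MMP2 and 20 with ADAM19, while ADAM19 shared 26 with ADAM12. ADAMTS2 and ADAMTS3, which process procollagens, shared 27 bases, and ADAMTS2 shared 21 with ADAMTS10. The motif was present in 23 of the 24 MMPs, the exception being the pseudogene MMP23A. It was present in 11 of the 21 ADAMs. ADAM11, ADAM22, ADAM23 and ADAM32 were the tested members without it. Among ADAMTS genes 14 of 19 held it, and the other 5 (ADAMTS1, ADAMTS4, ADAMTS8, ADAMTS9 and ADAMTS15) matched only when the conserved glycine between the last histidines was left free. A cysteine switch, the propeptide motif that keeps an MMP latent, was found in 17 MMPs. Only the exact pattern Pro-Arg-Cys-Gly-any-Pro-Asp was searched, so a variant form in the other MMPs would be missed.

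Library totals ranged from 53531257 to 70518401 estimated counts, and 20295 genes passed the filter on low counts. PRMT5 itself stood at an FPKM (fragments per kilobase of transcript, scaled to library size) of 33.9 ± 1.66 in NC-shRNA and 11.5 ± 1.09 in PRMT5-shRNA libraries (SD, n = 3), a log2 fold change of -1.62 with an edgeR adjusted p of 0.0063. The epithelial keratins KRT7, KRT8, KRT18 and KRT19 were at mean FPKM of 36.5 or more in both groups, while EPCAM was at 0.50 and 0.413 and CDH1 at 0.137 and 0.197. The summed CPM (counts scaled to library size) of the 6 epithelial markers, most of it from the keratins, was 1750 to 1880 in NC-shRNA libraries against 1520 to 1650 after knockdown. Of 6 endothelial markers, all 4 tested had higher CPM in every PRMT5-shRNA library. Over all tested genes, the CPM of both groups did not overlap for 21.7%. VWF was at 0 in every NC-shRNA library and had 128, 105 and 122 counts in the PRMT5-shRNA libraries (edgeR adjusted p = 0.034). KDR was at 0 in every NC-shRNA library and had 12, 22 and 26. PECAM1 had 30, 5 and 8 counts against 104, 100 and 109. VWF, KDR and PECAM1 could thus pass the filter on low counts only through the PRMT5-shRNA libraries. No weight is put on the lack of overlap of these genes. The summed CPM of the endothelial list was 9.74 to 10.8 against 14.8 to 18.5. The summed CPM of 7 fibroblast markers was 120 to 143 against 112 to 134, most of it from DCN (mean CPM 96.9 and 82.0). COL1A2 was at 0 in all libraries, while COL3A1 and PDGFRB were higher in every knockdown library (log2 fold changes 0.87 and 0.57, adjusted p = 0.11 and 0.23). The summed CPM of 6 myeloid markers was 16.2 to 21.5 against 15.1 to 18.0, most of it from CD68 (mean CPM 15.7 and 13.2). PTPRC was at 0 in every NC-shRNA library and had 8, 10 and 0 counts after knockdown, and LYZ had 65, 79 and 42 counts against 35, 0 and 0. The part of other cells or of these genes in the results below was not tested. In bulk RNA, more cells that express a gene and more RNA per cell cannot be told apart.

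Of the 68 members, 47 passed the filter on low counts and could be tested: 16 MMPs, 12 ADAMs, 15 ADAMTS genes and all 4 TIMPs. Another 12 members had no count in any library, and 9 had counts too low to test. At an adjusted p under 0.05, the rule for a call, 2 members passed, MMP1 and ADAM19, both higher after knockdown. These are 4.26% of the tested members, and 0.069% of all tested genes (14 of 20295) passed. The set was chosen with earlier results of these data known, so its shares are described and are not a test. At an unadjusted p under 0.05, 11 members passed (7 higher and 4 lower, 23.4%), against 12.8% of all genes. With a fold change over 1.5 as well, 7 members passed (14.9%), against 3.82% of all genes. The CPM of both groups did not overlap for 15 members (11 higher and 4 lower, 31.9%), against 21.7% of all genes. MMP14, counted at both unadjusted limits and here, and MMP23B, counted here, passed the filter only with the PRMT5-shRNA libraries. Leaving out MMP1 and ADAM19, 9 of 45 members (20.0%) had an unadjusted p under 0.05, 5 (11.1%) also passed the fold limit and 13 (28.9%) did not overlap. The median log2 fold change of the 47 members was 0.03, and that of all genes was 0.01. DESeq2, run as an alternative, called 6 members, adding MMP2 and ADAMTS10 (higher) and ADAMTS2 and ADAMTS8 (lower), and it called 3.17% of all genes to which it gave an adjusted p (530 of 16723).

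**Figure D1:**
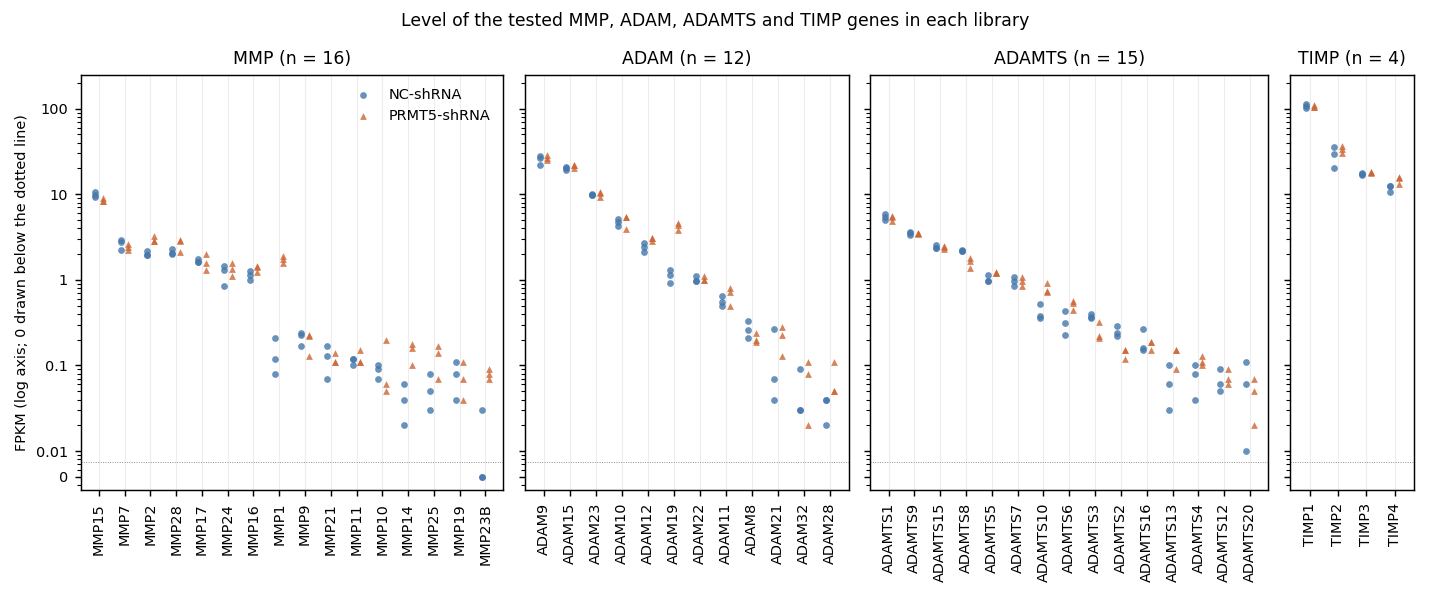
FPKM (log axis) of the 47 tested members in each library, ordered by mean level within each family. Circles are NC-shRNA and triangles PRMT5-shRNA libraries, with values of 0 drawn below the dotted line. TIMP1 is at 102.4 or more in every library, most MMPs are below 3, and the groups of MMP1 and ADAM19 lie well apart.

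MMP1, the interstitial collagenase that cuts fibrillar collagens, rose the most among the MMPs. Its FPKM was 0.12, 0.21 and 0.08 in the NC-shRNA libraries against 1.56, 1.74 and 1.89 in the PRMT5-shRNA libraries. The estimated counts behind these were 19, 34 and 12 against 192, 276 and 244. The groups did not overlap, the lowest knockdown value lying far above the highest control. The log2 fold change was 3.58 with a standard error (SE) of 0.349, or 12-fold, and the edgeR adjusted p was 0.034. An exact two-sided permutation test of the CPM gave p = 0.10, the smallest that 3 against 3 libraries allow.

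Within its family MMP1 ranked first of 16 tested MMPs by log2 fold change, the other 15 lying between -0.26 and 2.74. The highest of these, MMP23B, had at most 19 counts in any library. Among all 20295 genes it ranked 21 by log2 fold change and 11 by p. By mean FPKM it moved from rank 9 to rank 5 of the 24 MMPs, and its share of the summed MMP FPKM went from 0.638% ± 0.326 to 7.28% ± 0.741 (SD, n = 3). Even so, MMP1 in the knockdown libraries remained below MMP15, MMP7, MMP2 and MMP28. The summed MMP FPKM was 21.5 ± 0.680 in NC-shRNA and 23.8 ± 0.246 in PRMT5-shRNA libraries, and without MMP1 it was 21.4 ± 0.716 and 22.0 ± 0.373. The MMP1 call was lost when NC-shRNA replicate 1 (adjusted p = 0.107) or PRMT5-shRNA replicate 1 (0.0936), 2 (0.0951) or 3 (0.0926) was left out, while the log2 fold change stayed between 3.32 and 4.02. Low estimated counts in these tables gathered at multiples of 4, and with every count divided by 4 the edgeR adjusted p of MMP1 was 0.0184.

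MMP1 (ENSG00000196611, chr11:102789920-102798160, minus strand) lies among 9 MMP genes over 435.2 kb of chromosome 11, all on the minus strand. MMP7, a matrilysin that cuts proteoglycans and cell surface proteins, begins at -267.4 kb from the start of MMP1. Its FPKM was 2.75, 2.25 and 2.89 in NC-shRNA and 2.45, 2.62 and 2.25 in PRMT5-shRNA libraries, and its log2 fold change was -0.17 (SE 0.145, adjusted p = 0.68). MMP10, a stromelysin that cuts a broad range of matrix proteins, begins at -17.5 kb. It had 15, 11 and 12 counts in the controls against 23, 8 and 8 after knockdown, a log2 fold change of 0.22 (SE 0.687, adjusted p = 0.92). For both neighbours the groups overlapped. The remaining 6 genes of the cluster were not tested. MMP8, MMP12 and MMP27 were at 0 in every library, and MMP3, MMP13 and MMP20 reached at most 17 counts. MMP13, a collagenase like MMP1, had 0, 4 and 0 counts in the controls against 17, 17 and 0 after knockdown.

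To place MMP1 against its neighbours within each library, the log2 ratio of CPM was taken. The pairs were chosen after the values were seen, and since CPM is not per length only the difference of a ratio between groups is read. MMP1 over MMP7 was -4.79, -3.67 and -5.35 in NC-shRNA and -0.89, -0.83 and -0.49 in PRMT5-shRNA libraries, a difference of 3.86. MMP1 over MMP10 was 0.34, 1.63 and 0.00 against 3.06, 5.11 and 4.93, a difference of 3.71. Neither ratio overlapped between the groups, and each exact two-sided permutation p was 0.10, the smallest possible (0.10 after adjustment over 3 ratios). The pseudogene WTAPP1, which overlaps MMP1 on the opposite strand, had at most 8 counts in any library.

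**Figure D2:**
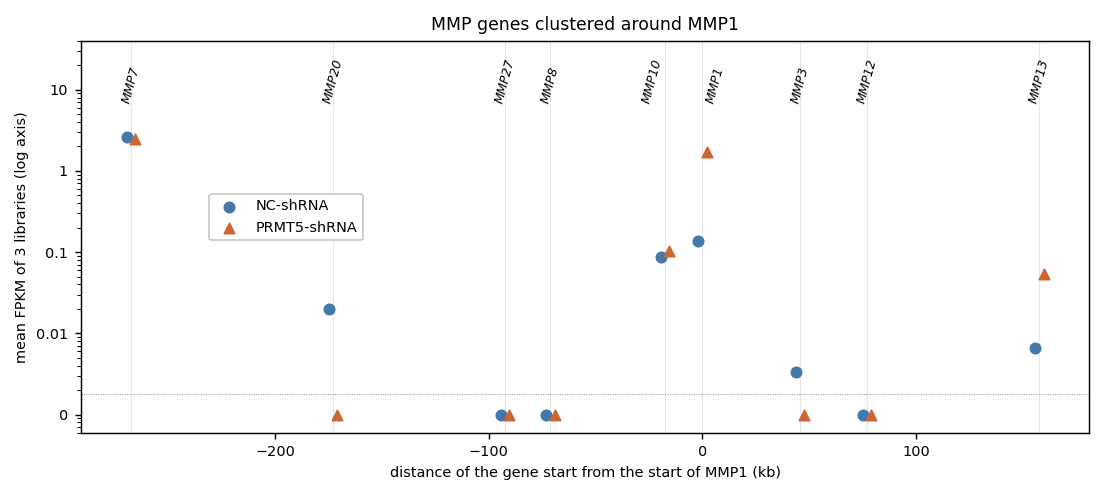
Mean FPKM (log axis) of the 9 clustered MMP genes against the distance of each gene's start from that of MMP1. Circles are NC-shRNA and triangles PRMT5-shRNA libraries (means of 3), with 0 drawn below the dotted line. MMP1 goes from 0.137 to 1.73, MMP7 is at 2.63 and 2.44, and MMP10 is at 0.0867 and 0.103.

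Upstream sequence of the neighbours was available from RefSeq (GRCh38.p14), and 38 of the 68 members, 27 of them tested, were matched in that table. MMP1 was not matched, so its own upstream sequence was not searched for any motif. The 250 bases before the start of MMP10 and MMP7 are shown, because they are the other tested genes of the cluster and overlapped between the groups, and those of ADAM19 as the other called gene. Capitals mark the AP-1 motif TGANTCA and the TATA box TATAAA, searched on both strands together with the C/EBP-ATF motif TGATGNAAT.
MMP10, chr11:102780629-102780878, minus strand: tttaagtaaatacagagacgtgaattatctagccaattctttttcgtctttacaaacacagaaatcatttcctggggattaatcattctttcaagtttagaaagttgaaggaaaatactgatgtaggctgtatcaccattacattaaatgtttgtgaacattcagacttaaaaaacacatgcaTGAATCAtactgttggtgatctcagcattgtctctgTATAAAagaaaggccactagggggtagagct
MMP7, chr11:102530748-102530997, minus strand: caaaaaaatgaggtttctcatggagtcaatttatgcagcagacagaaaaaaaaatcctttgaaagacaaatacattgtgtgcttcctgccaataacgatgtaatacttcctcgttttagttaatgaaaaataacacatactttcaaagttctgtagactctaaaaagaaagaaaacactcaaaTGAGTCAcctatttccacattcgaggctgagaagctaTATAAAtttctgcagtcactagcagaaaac
ADAM19, chr5:157575776-157576025, minus strand: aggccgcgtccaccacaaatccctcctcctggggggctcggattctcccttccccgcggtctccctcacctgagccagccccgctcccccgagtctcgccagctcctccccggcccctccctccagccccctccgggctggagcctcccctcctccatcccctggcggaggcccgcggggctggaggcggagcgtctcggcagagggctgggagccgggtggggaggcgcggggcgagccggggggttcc

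In both MMP7 and MMP10 the AP-1 letters lay 67 bases before the start, and the TATA box lay 30 bases before it in MMP7 and 31 in MMP10. The 300-base window of ADAM19 held none of the 3 motifs and had a GC content of 75.7%, against 35.7% for MMP7 and 36.3% for MMP10. Over the 38 members, the AP-1 motif was in 4 (10.5%; ADAMTS12, MMP7, MMP10 and MMP20), against 7.71% of 35116 promoters. The TATA box letters, counted anywhere in the window, were in 8 members (21.1%), against 11.5% of all promoters. Besides MMP7 and MMP10, they lay at -28 in MMP26, -72 in MMP20, -78 in ADAMTS10, -92 in MMP21 and -110 in MMP8. In ADAM21 they lay after the start, at +40. The C/EBP-ATF motif was in no member, against 0.991% of all. The median GC content was 67.0% for the members and 58.7% for all promoters. A match describes the letters and does not show a site in use.

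The gelatinases MMP2 and MMP9 cut denatured collagen and basement membrane collagen. MMP2 had an FPKM of 1.97, 1.94 and 2.20 in NC-shRNA and 2.84, 2.87 and 3.24 in PRMT5-shRNA libraries. All 3 knockdown libraries were higher. The log2 fold change was 0.49 (SE 0.105) with an unadjusted p of 0.0024 and an adjusted p of 0.19. MMP9 was low, with 33, 46 and 41 counts against 34, 25 and 34, and its groups overlapped (log2 fold change -0.21, adjusted p = 0.85). MMP2 overlaps annotated genes on both strands, and the counting's treatment of strand is not given in the sources used here.

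Of 6 membrane-type MMPs, all 6 were tested. An unadjusted p under 0.05 was reached by 2 (33.3%, against 12.8% of all genes), in opposite directions. MMP14, which activates the MMP2 precursor at the cell surface, had 14, 24 and 7 counts in NC-shRNA and 45, 36 and 54 in PRMT5-shRNA libraries. Its FPKM was at most 0.06 in the controls and at least 0.10 after knockdown, a log2 fold change of 1.75 (SE 0.514, adjusted p = 0.27). With 7 counts in 1 control library, MMP14 passed the filter on low counts only with the PRMT5-shRNA libraries. No weight is put on its lack of overlap. MMP15, a related membrane enzyme and the most abundant MMP here, had an FPKM of 10.63, 9.79 and 9.20 against 8.38, 9.03 and 8.35. MMP15 was thus lower in every knockdown library, by a smaller amount (log2 fold change -0.26, SE 0.0903, adjusted p = 0.31). The other 4 (MMP16, MMP17, MMP24 and MMP25) overlapped between the groups, with log2 fold changes of 0.20, -0.10, 0.11 and 1.04.

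Among the remaining MMPs, MMP28, an MMP of epithelial tissues, was among the 4 most abundant. Its FPKM was 2.05, 2.02 and 2.30 in NC-shRNA and 2.91, 2.11 and 2.85 in PRMT5-shRNA libraries, and the groups overlapped (log2 fold change 0.24, SE 0.151, adjusted p = 0.54). MMP23B had 7, 0 and 0 counts against 13, 19 and 13, which do not overlap, with a log2 fold change of 2.74 and an SE of 1.24 (adjusted p = 0.41). MMP23B passed the filter on low counts only through the PRMT5-shRNA libraries, so no weight is put on the lack of overlap. Its near-identical copy MMP23A had a count in 1 library alone, so the split of reads between both copies is uncertain. MMP11, MMP19 and MMP21 overlapped between the groups, with log2 fold changes of 0.02, -0.14 and -0.07. Over the 16 tested MMPs, 10 log2 fold changes were above 0 and the median was 0.16, and without MMP1 the median was 0.11.

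ADAM19, a membrane metalloprotease known for the shedding of neuregulin and for its part in heart development, was the called member of the ADAM family. Its FPKM was 0.92, 1.13 and 1.32 in the controls against 3.85, 4.59 and 4.43 in the PRMT5-shRNA libraries. The estimated counts were 583, 723 and 739 against 1850, 2851 and 2237. The lowest knockdown library was well above the highest control. The log2 fold change was 1.87 (SE 0.141), or 3.66-fold, with an edgeR adjusted p of 0.018, and the exact permutation p of the CPM was 0.10, the smallest possible. The call was lost without NC-shRNA replicate 2 (adjusted p = 0.0714) or PRMT5-shRNA replicate 3 (0.0565), and the log2 fold change stayed between 1.76 and 1.98 whichever library was left out.

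By log2 fold change ADAM19 ranked first of 12 tested ADAMs, the other 11 lying between -0.39 and 1.10, and it ranked 3 of the 47 members. Over all genes it ranked 124 by log2 fold change and 4 by p. By mean FPKM it moved from rank 6 to rank 5 of 21 ADAMs, and its share of the summed ADAM FPKM went from 1.70% ± 0.216 to 5.88% ± 0.591 (SD, n = 3). Summed ADAM FPKM was 65.8 ± 3.82 in NC-shRNA and 73.0 ± 1.16 in PRMT5-shRNA libraries. Without ADAM19 it was 64.6 ± 3.63 and 68.7 ± 1.41. ADAM19 (ENSG00000135074, chr5:157395534-157575775, minus strand) overlaps AC008676.3 on its own strand and CYFIP2, NIPAL4, AC008676.2 and AC106801.1 on the other. CYFIP2 had a log2 fold change of -0.04 (SE 0.123). NIPAL4 had 60, 75 and 56 counts in the controls and 103, 113 and 78 after knockdown, higher in CPM in every knockdown library (log2 fold change 0.75, SE 0.232, adjusted p = 0.29), and its part in the ADAM19 value was not tested.

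ADAM12, which like ADAM19 belongs to the meltrins, was the other ADAM with an unadjusted p under 0.05. The FPKM of ADAM12 was 2.12, 2.43 and 2.68 in NC-shRNA and 3.10, 3.12 and 2.85 in PRMT5-shRNA libraries. The groups did not overlap, with a log2 fold change of 0.27 (SE 0.0966, adjusted p = 0.33). ADAM19 over ADAM12 within a library was a log2 ratio of -1.55, -1.45 and -1.38 in NC-shRNA and -0.04, 0.20 and 0.28 in PRMT5-shRNA libraries. The difference was 1.61, with an exact permutation p of 0.10.

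The most abundant ADAMs overlapped between the groups. ADAM9, a broadly expressed sheddase, had an FPKM of 21.73, 26.53 and 27.70 in NC-shRNA and 26.72, 25.11 and 28.86 in PRMT5-shRNA libraries (log2 fold change 0.03, SE 0.0914). ADAM15, which carries an integrin-binding disintegrin domain, had 20.44, 20.91 and 19.28 against 21.91, 21.99 and 20.34 (log2 fold change 0.02, SE 0.0680). ADAM23, an ADAM without protease activity, had 9.80, 9.87 and 10.17 against 10.37, 10.76 and 9.38 (log2 fold change -0.03, SE 0.0718). ADAM10, the main sheddase of Notch, had 4.23, 4.73 and 5.16 against 5.42, 3.91 and 5.38 (log2 fold change 0.00, SE 0.133). For these 4, adjusted p-values were 0.91 or more, and the SEs show how closely the libraries fixed each value. ADAM28 had 12, 35 and 25 counts against 33, 42 and 65, and its CPM was higher in every knockdown library (log2 fold change 1.10, adjusted p = 0.41). ADAM8, ADAM11, ADAM21, ADAM22 and ADAM32 overlapped. Of the 9 untested ADAMs 7 were at 0 throughout, and ADAM20 and ADAM30 had counts in 1 library each.

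**Figure D3:**
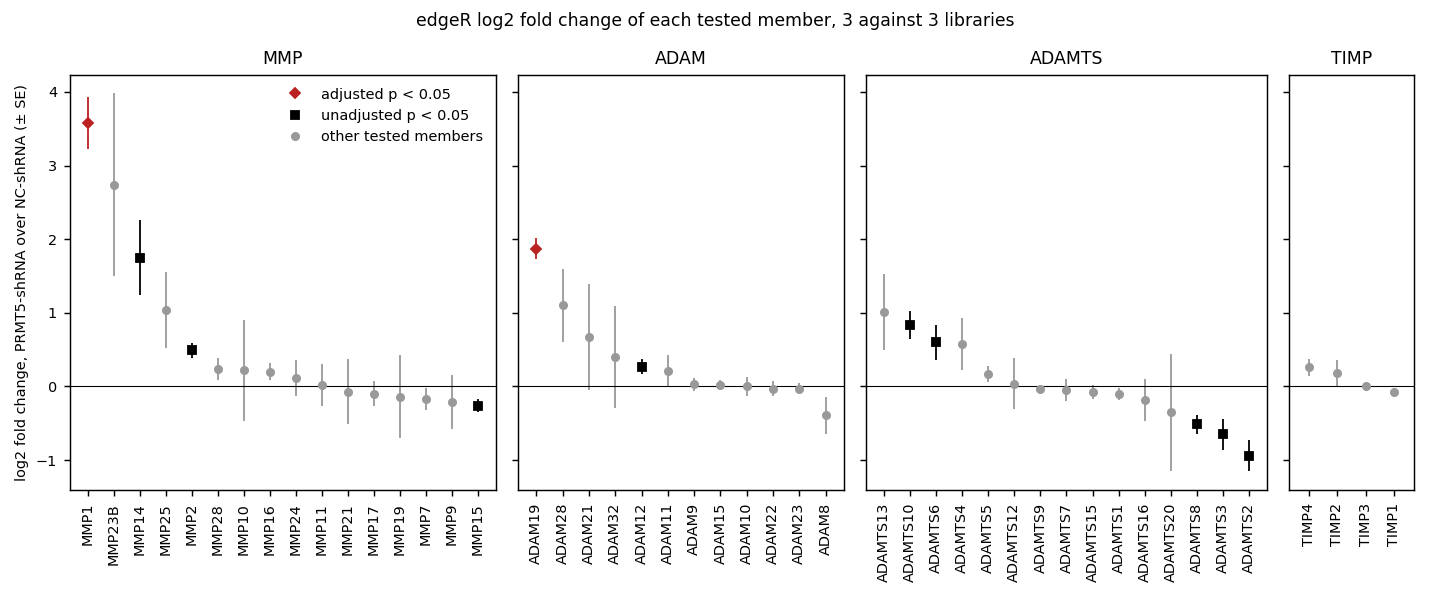
edgeR log2 fold change (PRMT5-shRNA over NC-shRNA, ± SE, 3 against 3 libraries) of the 47 tested members by family. Diamonds mark an adjusted p under 0.05 (MMP1 at 3.58 and ADAM19 at 1.87), squares an unadjusted p under 0.05 and circles the other members.

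Of 15 tested ADAMTS genes, 5 had an unadjusted p under 0.05 (2 higher and 3 lower, 33.3%), against 12.8% of all genes. With a fold change over 1.5 as well, 4 passed (26.7%), against 3.82% of all genes, and none was called by edgeR. The median log2 fold change was -0.05 and 6 of 15 were above 0. The summed ADAMTS FPKM was 17.4 ± 0.656 in NC-shRNA and 17.3 ± 0.607 in PRMT5-shRNA libraries.

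ADAMTS2 and ADAMTS3 remove the amino-terminal propeptides of fibrillar procollagens. ADAMTS2 had 212, 173 and 143 counts in NC-shRNA and 81, 104 and 68 in PRMT5-shRNA libraries, with an FPKM of 0.29, 0.24 and 0.22 against 0.15, 0.15 and 0.12. Its log2 fold change was -0.94 (SE 0.211, adjusted p = 0.20). ADAMTS3 had an FPKM of 0.36, 0.40 and 0.37 against 0.21, 0.32 and 0.22, with a log2 fold change of -0.65 (SE 0.209, adjusted p = 0.30). Both were lower in every knockdown library. ADAMTS14, the remaining procollagen N-proteinase, was not tested at 4, 20 and 27 against 0, 8 and 8 counts. The substrates' genes among the fibroblast markers did not share this direction: COL3A1 had 501, 531 and 542 counts against 845, 889 and 889 (log2 fold change 0.87, SE 0.130, adjusted p = 0.11) and COL1A1 had a log2 fold change of 0.10 (SE 0.113).

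Of 7 aggrecanase-type ADAMTS genes, which cut aggrecan, versican and related proteoglycans, all 7 were tested. An unadjusted p under 0.05 was reached by 1 (14.3%, against 12.8% of all genes). ADAMTS8 had an FPKM of 2.19, 2.15 and 2.26 in NC-shRNA and 1.79, 1.38 and 1.68 in PRMT5-shRNA libraries, lower in every knockdown library (log2 fold change -0.51, SE 0.129, adjusted p = 0.23). ADAMTS15, a neighbour of ADAMTS8 on chromosome 11, had 2.55, 2.37 and 2.34 against 2.48, 2.30 and 2.43 (log2 fold change -0.07, SE 0.0969). ADAMTS1, the most abundant ADAMTS gene, had 5.03, 5.36 and 5.90 against 5.38, 4.89 and 5.61 (log2 fold change -0.10, SE 0.0813). ADAMTS9 had 3.33, 3.58 and 3.48 against 3.57, 3.52 and 3.44 (log2 fold change -0.04, SE 0.0643). These last 3 overlapped between the groups, as did the low ADAMTS20 (log2 fold change -0.35, SE 0.794). ADAMTS4 and ADAMTS5 were higher in CPM in every knockdown library, with log2 fold changes of 0.58 (SE 0.350) and 0.17 (SE 0.104) and adjusted p-values of 0.53.

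Among the other ADAMTS genes, 2 of 6 tested (33.3%, against 12.8% of all genes) had an unadjusted p under 0.05. ADAMTS10, which binds fibrillin microfibrils, had an FPKM of 0.38, 0.36 and 0.52 in NC-shRNA and 0.92, 0.72 and 0.74 in PRMT5-shRNA libraries. All knockdown libraries were higher, with a log2 fold change of 0.84 (SE 0.192, adjusted p = 0.20). ADAMTS6, its closest homologue, had 165, 222 and 269 counts against 235, 391 and 300, which overlap (log2 fold change 0.60, SE 0.234, adjusted p = 0.36). ADAMTS13, which cleaves von Willebrand factor, had 47, 14 and 23 counts against 31, 71 and 56, which overlap (log2 fold change 1.01, SE 0.514, adjusted p = 0.46). ADAMTS7, ADAMTS12 and ADAMTS16 overlapped too, with log2 fold changes of -0.05, 0.04 and -0.18. ADAMTS18 was not tested. It was at 0 in every NC-shRNA library and had 4 counts in each PRMT5-shRNA library.

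**Figure D4:**
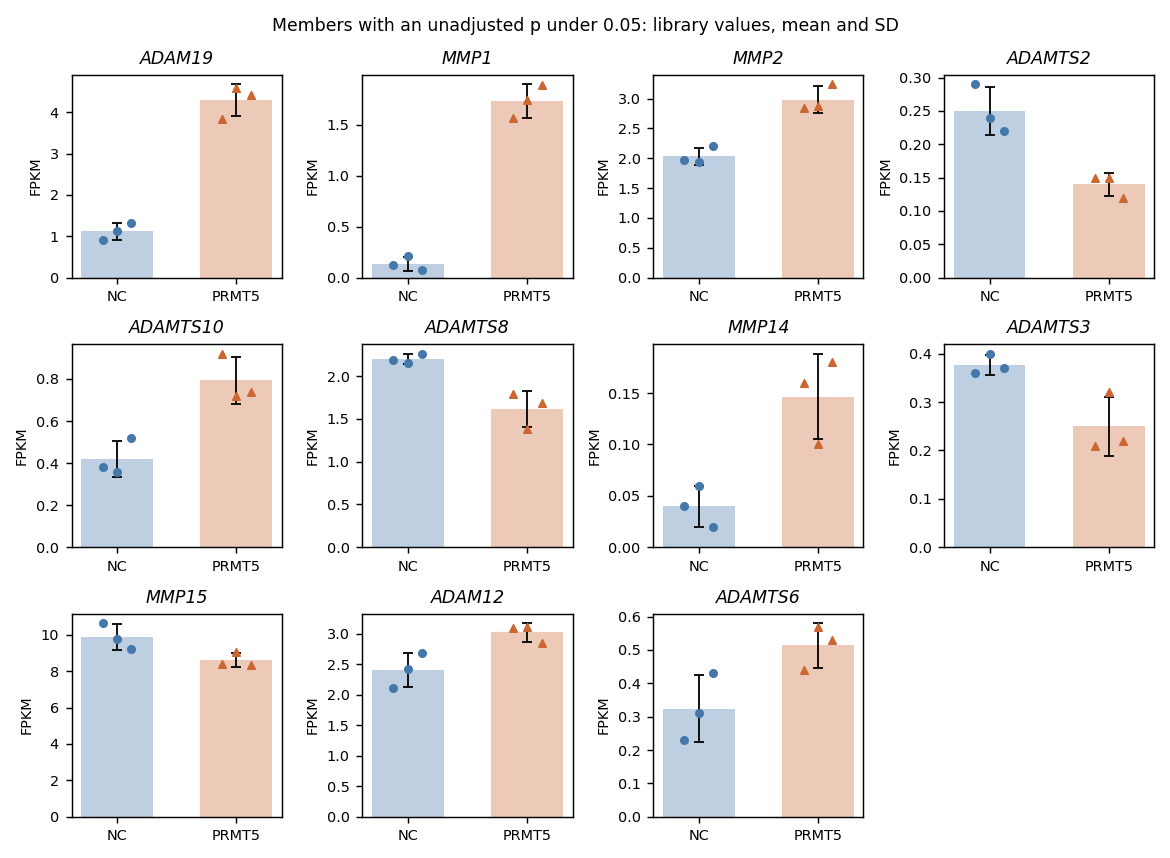
FPKM of the 11 members with an unadjusted p under 0.05, ordered by p. Points are libraries, bars the mean of 3 and error bars the SD, with each axis starting at 0. MMP1 and ADAM19 are the called members, while ADAMTS2, ADAMTS8, ADAMTS3 and MMP15 are the 4 that are lower in PRMT5-shRNA libraries.

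None of the 4 inhibitors had an unadjusted p under 0.05. By mean FPKM, TIMP1 and TIMP2 were above every other member, and ADAM9 and ADAM15 stood between TIMP2 and TIMP3. TIMP1, a secreted inhibitor of most MMPs, had an FPKM of 112.35, 102.40 and 106.83 in NC-shRNA and 110.09, 104.39 and 103.03 in PRMT5-shRNA libraries (log2 fold change -0.08, SE 0.0655). TIMP2, which also takes part in MMP2 activation by MMP14, had 20.49, 29.40 and 35.16 against 36.20, 30.20 and 33.84 (log2 fold change 0.18, SE 0.173). The control libraries of TIMP2 spread more widely than those of the other TIMPs. TIMP3, the matrix-bound inhibitor that also acts on ADAMs and ADAMTS enzymes, had 17.35, 16.70 and 17.75 against 17.64, 18.41 and 18.04 (log2 fold change 0.00, SE 0.0569). TIMP4 had 10.70, 12.55 and 12.54 against 15.38, 16.08 and 13.20, higher in every knockdown library (log2 fold change 0.26, SE 0.115, unadjusted p = 0.0575, adjusted p = 0.40). TIMP1 and TIMP3 lie within the synapsin genes SYN1 and SYN3 on the opposite strand, which had at most 30 and 20 counts in any library. TIMP4 overlaps SYN2 on the opposite strand, and the part of SYN2 in the TIMP4 value was not tested. Summed TIMP FPKM was 165 ± 6.53 and 172 ± 6.21, above the summed FPKM of the MMPs, ADAMs and ADAMTS genes together in both groups.

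Genes that activate, carry or hold back these enzymes were described from lists made with earlier results of these data known. Outside the members, none of the genes in the 7 lists was called. Proprotein convertases remove the propeptides of ADAMs, ADAMTS enzymes and membrane-type MMPs. Of 4 tested, FURIN alone (25.0%, against 12.8% of all genes) had an unadjusted p under 0.05. FURIN had 6879, 7185 and 5920 counts in NC-shRNA and 7059, 8212 and 6965 in PRMT5-shRNA libraries (log2 fold change 0.29, SE 0.0654, adjusted p = 0.20). None of the 6 TspanC8 tetraspanins, which carry ADAM10 to the cell surface, had an unadjusted p under 0.05, and all 6 overlapped between the groups. Their median log2 fold change was -0.39, with values from -0.54 (TSPAN14, SE 0.51) to 0.04 (TSPAN17, SE 0.336). TSPAN15, the member with the highest mean FPKM, had -0.07 (SE 0.0902).

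Plasminogen activation genes were also followed. PLAU, the urokinase that turns plasminogen into plasmin, an activator of MMP precursors, had 138, 226 and 191 counts against 243, 376 and 317 (log2 fold change 0.87, SE 0.213, adjusted p = 0.22). It was the gene of these 7 lists that also passed the fold limit. SERPINE2, a serine protease inhibitor that acts on urokinase, had 3911, 3723 and 3240 counts against 3734, 4656 and 4438 (log2 fold change 0.37, SE 0.0826, adjusted p = 0.20). Both were higher in CPM in every knockdown library.

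Among other metalloproteinase inhibitors 2 of 5 tested had an unadjusted p under 0.05. SPOCK1, a testican proteoglycan, had a log2 fold change of 0.53 (SE 0.0981, adjusted p = 0.17). TFPI2, a serine protease inhibitor of the matrix, had 0.42 (SE 0.173, adjusted p = 0.38) with overlapping groups. RECK, a membrane-anchored inhibitor of MMPs, had -0.01. Of the ADAMTS-like proteins, which lack the protease domain, 2 of 6 tested (33.3%, against 12.8% of all genes) had an unadjusted p under 0.05. These were ADAMTSL4 and THSD4, each with a log2 fold change of 0.29. None of 4 tested astacins and their enhancers had an unadjusted p under 0.05. BSG (basigin), known for inducing MMPs in neighbouring cells, was lower in every knockdown library at 30071, 29140 and 24896 against 15982, 20730 and 22472 counts (log2 fold change -0.37, SE 0.119, adjusted p = 0.30).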

How the data were processed

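Messenger RNA of NCI-H460 cells was measured in 3 NC-shRNA and 3 PRMT5-shRNA libraries, grouped by the sample labels. Per the methods, stranded poly(A) libraries were sequenced on an Illumina HiSeq. The submitters' processing notes name cutadapt 1.9, HISAT2 2.0.4, StringTie 1.3.4d and GRCh38 (the paper's text names a mouse assembly). The authors deposited estimated counts per gene, not normalized and already whole, and FPKM values, normalized by the authors for gene length and library size. The annotation and the strand setting of the counting are not given in the sources used here, so reads of overlapping or near-identical genes may be split. Among genes with low counts above 0, between 32.6% and 34.4% held a multiple of 4 in each library. Totals were 53531257 to 70518401 per library.

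Counts were tested with edgeR 4.0.16 in R 4.3.3 (quasi-likelihood test, TMM scaling, filterByExpr by group, no covariate) over all 20295 genes that passed, with Benjamini-Hochberg adjustment over all of them. A call is an adjusted p under 0.05. A looser limit is an unadjusted p under 0.05 with a fold change over 1.5. SEs come from the F statistic. Exact permutation tests used scipy. The code was tested on simulated data. DESeq2 1.42.0, limma 3.58.1 on log2(FPKM + 1) or log2(FPKM + 0.1) with a mean FPKM of at least 0.5, other filters and scalings, the replicate number as a block and leaving out each library were alternatives.

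Values in every library are given for MMP1, ADAM19, all TIMPs, members with an unadjusted p under 0.05 and the 4 members with the highest mean FPKM in the MMP, ADAM and ADAMTS families. Others named were chosen after their values were seen. The members and lists were chosen with earlier results of these data known. Promoters are from RefSeq (GRCh38.p14), and coding stretches and positions from GENCODE 29 (GRCh38), which held all 68 member IDs. Protein sequences were not used here, and the result of 1 gene of the plasminogen activation list is not reported here.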

Additional observations from a re-analysis of the deposited data

How the results depend on the processing

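DESeq2 called 6 members (3.17% of all genes). Replicate numbers did not pair the libraries (correlations of same-numbered deviations 0.0349, -0.0103 and -0.015), and with the replicate block 0 members and 0 genes in all were called. In that replicate block fit the log2 fold change was 3.65 for MMP1 (adjusted p = 0.273), 1.88 for ADAM19 (0.144) and -1.62 for PRMT5 (0.144), and the median of the tested MMPs was 0.08. Leaving out 1 library at a time left 0 to 2 members called (0.0383% to 0.117% of all genes), with log2 fold changes of 3.32 to 4.02 for MMP1 and 1.76 to 1.98 for ADAM19. Over all alternatives these ranged from 1.26 to 4.02 and from 1.32 to 1.98, the lowest on the log2(FPKM + 1) scale, which compresses low genes, with adjusted p-values of 7.55e-19 to 0.273 and 1.03e-29 to 0.144. The looser limit was passed by 2 of 27 members with limma on log2(FPKM + 1) (1.01% of all genes), 3 of 27 with log2(FPKM + 0.1) (2.90%) and 2 of 56 without a filter (0.427%). The family medians moved. With limma the ADAMTS median was 0.01 under each of the 3 settings and the TIMP median 0.16. The ADAM median was 0.03 with at least 1 CPM in 3 libraries, with counts divided by 4 and without ADAM19, 0.05 with unfiltered limma and 0.24 without a filter on counts. The MMP median was 0.04 with unfiltered limma. Leaving out 1 library gave medians of 0.10 to 0.24 (MMP), -0.09 to 0.03 (ADAMTS) and 0.01 to 0.14 (TIMP). The sign of genes near 0 turned: limma gave 0.03 for ADAM23 and 0.02 for ADAMTS9, and leaving out 1 library gave ranges of -0.03 to 0.06 for ADAM15, -0.08 to 0.03 for ADAM23 and -0.06 to 0.08 for ADAM9. The cause of these moves was not tested. Depth limits MMP14, MMP10, MMP23B and the untested members.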
